A study of Mus musculus with 19 samples.

Results

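Histones are the proteins that package DNA, and the canonical ones are encoded by large families of near-identical genes. Their rows were taken from a table of read counts of mouse hepatocytes as every row whose symbol begins with Hist1h, Hist2h, Hist3h or Hist4h, which gave 69 rows of the 24537 in the table. By symbol, 55 belong to the Hist1 cluster on chromosome 13, 10 to the Hist2 cluster on chromosome 3, 3 to the Hist3 cluster on chromosome 11 and 1 (Hist4h4) to chromosome 6. By the histone class in their symbols, 19 rows are H2A, 19 are H2B, 13 are H4, 12 are H3 and 6 are the linker histone H1. Of the 69 rows, 2 (Hist1h2al and Hist3h2bb-ps) are processed pseudogenes in GENCODE. Hist1h2al, at chr13:51200084-51203066, lies away from all other Hist1 rows. Its counted length is 2982 bases, of which the GENCODE pseudogene covers 339. Only 64 separate loci stand behind the 69 rows, since 10 rows lie on 5 shared stretches of the genome. The choice used no measured value, although the family was put forward with earlier results of these data known.

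Most canonical histone mRNAs are made while DNA is copied, to supply histones for the new chromosomes. They differ from nearly all other mRNAs in that they do not end in a poly(A) tail: they end just after a short stem-loop, which the stem-loop binding protein (Slbp) holds. A poly(A) library should therefore capture few of them, and what it does capture includes transcripts that run past the stem-loop to an ordinary polyadenylation site, as some canonical genes make in cells that do not divide. Adult hepatocytes divide rarely.

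The libraries were made from polyA RNA of hepatocytes of wild-type (WT) male C57BL/6J mice, isolated by a perfusion of the liver in 2 steps and extracted with Trizol and chloroform. The young group was 5 months old (10 libraries) and the old group 24 months (9 libraries), with no treatment or altered allele named for either. The mice were killed on 2 days, the first with 5 young and 5 old and the second with 5 young and 4 old. Libraries are called by the number in their labels, which are taken here as 1 mouse each. The labels do not say so in words, so the p-values below measure the spread between libraries.

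Gene totals ran from 17381439 to 20287628 reads per library. The 8 hepatocyte markers checked summed to between 92484 and 199337 CPM, with none at 0 in all libraries; 2 of them (Alb and Apoa1) were higher and 3 (Cps1, Pck1 and Hnf4a) lower in old libraries. CPM is a count relative to the library's gene total, that total having been adjusted by TMM (trimmed mean of M-values). Markers of other liver cells were also present and were higher in old libraries: 12 of 14 tested macrophage markers, 10 of 13 endothelial markers and 12 of 12 stellate cell markers. Summed macrophage markers ranged from 106 to 534 CPM in young and from 68.6 to 3335 CPM in old libraries, endothelial markers from 178 to 313 and from 189 to 629 CPM, and stellate markers from 51.1 to 136 and from 145 to 512 CPM. In the smaller lists, 1 of 1 tested B cell marker, 1 of 1 neutrophil marker and 3 of 4 erythroid markers were higher (1 was lower), and neither the T or NK cell marker nor the 2 cholangiocyte markers tested passed. An other-cell score, the mean log2 CPM of all tested markers of lymphocytes, stellate, endothelial cells and macrophages, had a median of 2.83 in young and 3.85 in old libraries and was highest, at 5.60, in old library 1187. Where histone rows moved beside these markers, their part in the result was not tested except as given below.

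The ends of the transcripts show what the counts can hold. In the GENCODE M21 transcripts of the GRCm38 build, 44 of the 69 members contained the histone stem-loop on the transcript strand, against 0.167% of 58797 protein-coding transcripts. A polyadenylation hexamer (AATAAA or ATTAAA) in the last 50 bases was found in 17 members, against 50.2% of all protein-coding transcripts. A member was counted if any of its transcripts matched, whereas the background is per transcript. Some GENCODE transcripts stop before the counted region does, as for Hist1h2bl (381 bases, against 429 counted). Their full ends were not searched, so a member without a match may still have either feature. The stem-loops of 7 members that the results turn on are written 5′ to 3′ below, with the stem-loop in capitals. The H1, H2A, H2B and H3 genes among them carry the same capitals, and the H4 genes carry others.
Hist2h2aa2: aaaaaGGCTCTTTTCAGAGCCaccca
Hist2h3c1: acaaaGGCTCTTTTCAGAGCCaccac
Hist1h2bg: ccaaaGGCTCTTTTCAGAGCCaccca
Hist1h1c: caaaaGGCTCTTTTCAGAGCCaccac
Hist3h2a: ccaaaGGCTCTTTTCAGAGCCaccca
Hist1h4h: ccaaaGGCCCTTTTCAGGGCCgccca
Hist1h4i: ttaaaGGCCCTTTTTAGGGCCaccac

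Several members also have an end with a polyadenylation hexamer, shown in capitals because such ends are what a poly(A) library would be expected to select. In the first 5 below it lies further 3′ than the stem-loop. The last pair have no stem-loop in GENCODE: the Hist2h2be stretch is the end of its transcript, and the Hist1h2bc stretch is the end of its counted region, 428 bases before the end of the GENCODE transcript.
Hist1h1c: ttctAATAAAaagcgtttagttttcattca
Hist2h3c1: taatcccAATAAAaatttaacacactgcta
Hist1h4h: tcttATTAAAagagcgaacatgtgttttac
Hist1h4i: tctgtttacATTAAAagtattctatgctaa
Hist3h2a: gcccAATAAAataagagtacgtgtataaca
Hist2h2be: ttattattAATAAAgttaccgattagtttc
Hist1h2bc: tgatgtatatatAATAAAtgtcatgtaaag

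The counted regions of the deposited table mostly stop at the stem-loop. For 37 members with a stem-loop whose counted 3′ end could be placed on the transcript, 36 ended within 10 bases after the stem-loop, with a median of 5 bases. Hist1h1c was counted to base 724 of a transcript of 1560 bases and Hist3h2a to base 508 of 2146, so reads from the last 836 and 1638 bases were not counted. Hist2h2be, by contrast, was counted to the last base of its 2620-base transcript, next to the hexamer. Hist1h2bc was counted over a spliced transcript that holds no stem-loop, and its hexamer lies 13 bases before the counted end. The levels below are therefore those of the part up to the stem-loop in most members. In a few the counted part reaches a polyadenylation hexamer. Whether the counted molecules were polyadenylated was not measured.

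**Figure D1:**
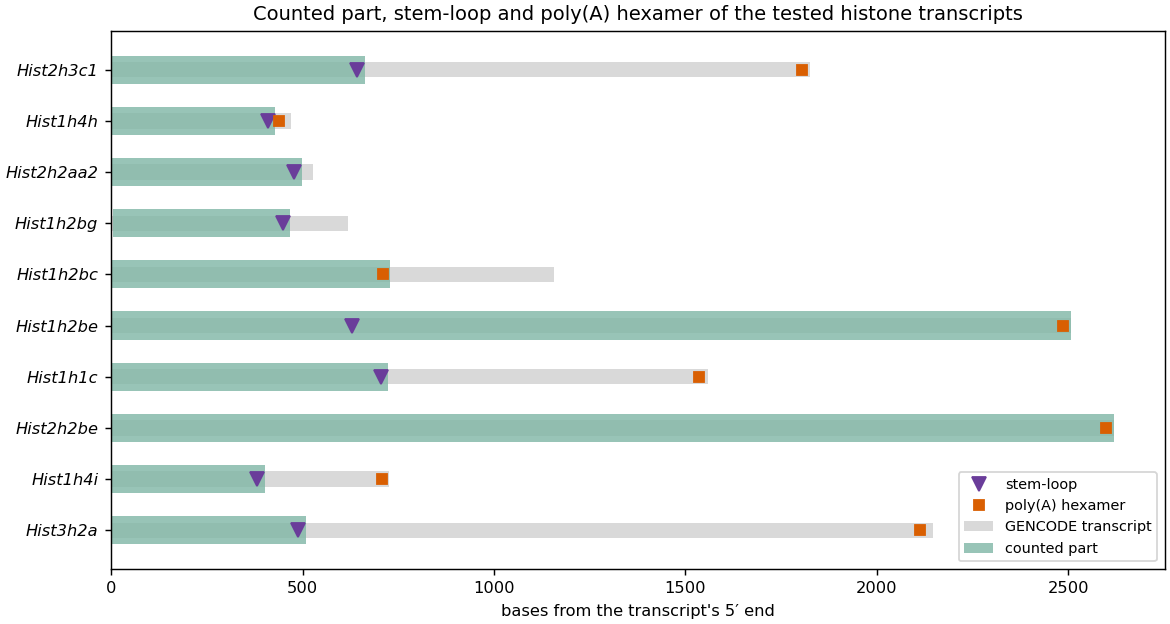
Counted part (green) of 10 tested histone transcripts on the GENCODE transcript (grey), in bases from the 5′ end, with the stem-loop as a triangle and the polyadenylation hexamer as a square. The counted part stops just after the stem-loop in 7 of them and reaches the hexamer in Hist1h2bc, Hist1h2be and Hist2h2be.

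Few members carried reads in any number. A single row had no read in any library (Hist1h2aa), 27 rows had under 3 counts in every library, and 16 rows had 3 or more in all 19. Summed over 1 row per locus, the family came to 2703, 3860 and 4308 counts (lowest, median and highest) in young libraries and to 2310, 2851 and 3353 in old ones. Hist1h2bc, an H2B gene of the Hist1 cluster, held 56.9% of this sum, Hist1h1c, encoding the linker histone H1.2, 18.1%, and the Hist2h2aa locus, encoding H2A, 11.7%. With Hist1h2bg, another H2B gene, these 4 loci made up 90.8%. Per kilobase of counted length, the mean level in young libraries was 159 CPM for Hist1h2bc, 47.6 for Hist2h2aa1 and 44.1 for Hist2h2aa2 (largely the same reads), 42.3 for Hist1h1c and 18.1 for Hist1h2bg, and below 7 for every other member.

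Histone genes often lie head to head, sharing a stretch of promoter. There were 12 such pairs with starts at most 1000 bases apart, and reads were very unequal within many of them. Over all 19 libraries, Hist1h2bc had 35665 counts and its partner Hist1h2ac 37.5, Hist1h2bg had 2532 and Hist1h2ae 76.5, Hist2h2be had 765 and Hist2h2ac 13.5, and Hist3h2a had 782.5 and Hist3h2bb-ps 6.5. These totals are not per length. The stretch between the starts of Hist1h2ae (minus strand) and Hist1h2bg (plus strand), chr13:23571221-23571399 on GRCm38.p6, is printed from RefSeq on the plus strand to show what such a pair shares.
Hist1h2ae to Hist1h2bg: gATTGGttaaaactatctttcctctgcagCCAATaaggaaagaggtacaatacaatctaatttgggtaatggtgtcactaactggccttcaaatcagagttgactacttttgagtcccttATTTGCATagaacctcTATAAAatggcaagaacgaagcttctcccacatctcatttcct

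Capitals mark CCAAT (or its reverse complement ATTGG), ATTTGCAT and TATAAA, which were searched on both strands in the 300 bases around each RefSeq start (250 before, 50 after). RefSeq windows were matched for 62 members, some away from the counted start (by 24002 bases for Hist1h2bq and 5163 for Hist2h2aa1). CCAAT occurred in 85.5% of them against 37.4% of 32851 promoters of the same length, TATAAA in 56.5% against 13.6%, and the octamer ATTTGCAT in 21.0% against 1.74%. The octamer occurred in 7 of 18 H2A and 6 of 16 H2B promoters and in no H1, H3 or H4 promoter, while CCAAT was in 3 of 12 H4 promoters and in all of the other classes. Head-to-head partners can hold the same site, as Hist1h2ae and Hist1h2bg do for the octamer, which is then counted in both classes. A match is a description of the letters only.

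A total of 15 rows, on 12 loci, passed edgeR's filter on low counts and were tested for age with cull day as a covariate. Of these, 9 rows on 6 loci were lower in old hepatocytes at an adjusted p under 0.05, and none was higher. Among all 12269 genes tested, 14.5% were lower and 16.3% were higher (30.9% in either direction). On the first cull day alone 2 rows were lower, both of the Hist2h2aa locus, against 1.79% of all genes, and on the second 9 rows, against 7.14%. The filter favours this direction for some of them: 4 rows on 3 loci (Hist1h2bq and Hist1h2br, Hist1h4h, Hist1h2al) passed through the young libraries alone. Without those, 4 of 9 loci were lower. In bulk RNA such as this, fewer cells that make a transcript and less of it per cell cannot be told apart.

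Hist2h2aa1 and Hist2h2aa2, which encode H2A in the Hist2 cluster, overlap on the minus strand in the table, at chr3:96239779-96240334 for Hist2h2aa1 and chr3:96239779-96240374 for Hist2h2aa2. They share 556 bases, and their counts differed by at most 4.5. GENCODE places Hist2h2aa1 outside this span, on the plus strand. Every 100-base stretch of either transcript also occurs in another gene, so reads cannot be assigned to 1 copy. Hist2h2aa1 stood at 343.5, 518.5 and 572 counts (lowest, median and highest) in young libraries and at 234, 279 and 368 in old ones. Scaled for depth, that was 19.3 to 30.8 CPM in young and 11.5 to 18.9 CPM in old libraries. Every old library was below every young library, which held for this locus alone among the 12 and for 0.725% of all genes tested. The log2 fold change was -0.90 (SE 0.0998, edgeR adjusted p = 1.9e-05), with -0.91 on the first cull day alone and -0.87 on the second.

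The neighbouring Hist2h3c1 and Hist2h3c2 rows, for the core histone H3, share the span chr3:96246700-96247348 and lie on opposite strands in the table, yet their counts differed by at most 2. The strand setting of the counting is not given in the sources used here, and GENCODE places Hist2h3c2 outside this span. Hist2h3c1 had 15.5, 43 and 95 counts in young and 12, 15.5 and 19 in old libraries. The young range is wide: libraries 1184, 1186 and 1188 held 74, 95 and 55 counts, while young library 1182, at 0.897 CPM, lay within the old range, which ended at 0.990 CPM. The log2 fold change was -1.72 (SE 0.281, edgeR adjusted p = 0.000342), and -1.73 for Hist2h3c2. Without young libraries 1184, 1186 and 1188, left out after seeing the data, it was -1.08 (adjusted p = 0.00306), and -1.07 without old library 1187 as well. Within the first cull day alone it was -1.94 with an adjusted p of 0.052, and within the second -1.45 with 0.00141.

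Among H2B genes, Hist1h2bc (chr13:23684199-23692480) had 1702, 2140 and 2504 counts in young and 1269, 1543 and 2029 in old libraries. In CPM the young range was 91.3 to 137.6 and the old range 61.5 to 105.4, and 6 of 9 old libraries lay below all the young ones. The log2 fold change was -0.47 (SE 0.0833, edgeR adjusted p = 0.000619). Hist1h2bg (chr13:23571400-23571863) ranged from 6.03 to 13.1 CPM in young and from 3.43 to 7.06 CPM in old libraries, and the log2 fold change there was -0.54 (edgeR adjusted p = 0.00272, SE 0.116). The groups overlapped for both genes. Neither passed on the first cull day alone (-0.38 with an adjusted p of 0.13, and -0.46 with 0.156), and both passed on the second (-0.57 with 0.00103, and -0.62 with 0.00723).

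Hist1h2bq and Hist1h2br, also H2B genes, are listed on the same span, chr13:21833743-21834201, with identical counts. GENCODE places Hist1h2bq outside this span and Hist1h2br on the plus strand, while both are counted on the minus strand. Of their 100-base stretches, 94.6% and 99.8% also occur in another gene, so few belong to 1 copy alone. Both rows had 10, 23.5 and 41 counts in young and 10, 13 and 18 in old libraries, so the lowest young library matched the lowest old one. The log2 fold change was -0.73 (SE 0.221, edgeR adjusted p = 0.0183). On the first cull day alone it was -0.42 with an adjusted p of 0.48, and on the second -1.04 with 0.00707.

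The H4 gene Hist1h4h (chr13:23531044-23531478) had 10, 18 and 29.5 counts in young and 6, 8.5 and 16.5 in old libraries. Of the 10 young libraries, 8 were above every old library in CPM. The log2 fold change was -0.999 (SE 0.217, edgeR adjusted p = 0.00287). It was -0.996 on the first cull day alone, with an adjusted p of 0.11, and -0.995 on the second, with 0.0273. The other H4 gene tested, Hist1h4i, went from a mean of 2.40 CPM (SD 0.853, 10 young libraries) to 2.56 CPM (SD 0.584, 9 old libraries), with an adjusted p of 0.488 in edgeR's fit.

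**Figure D2:**
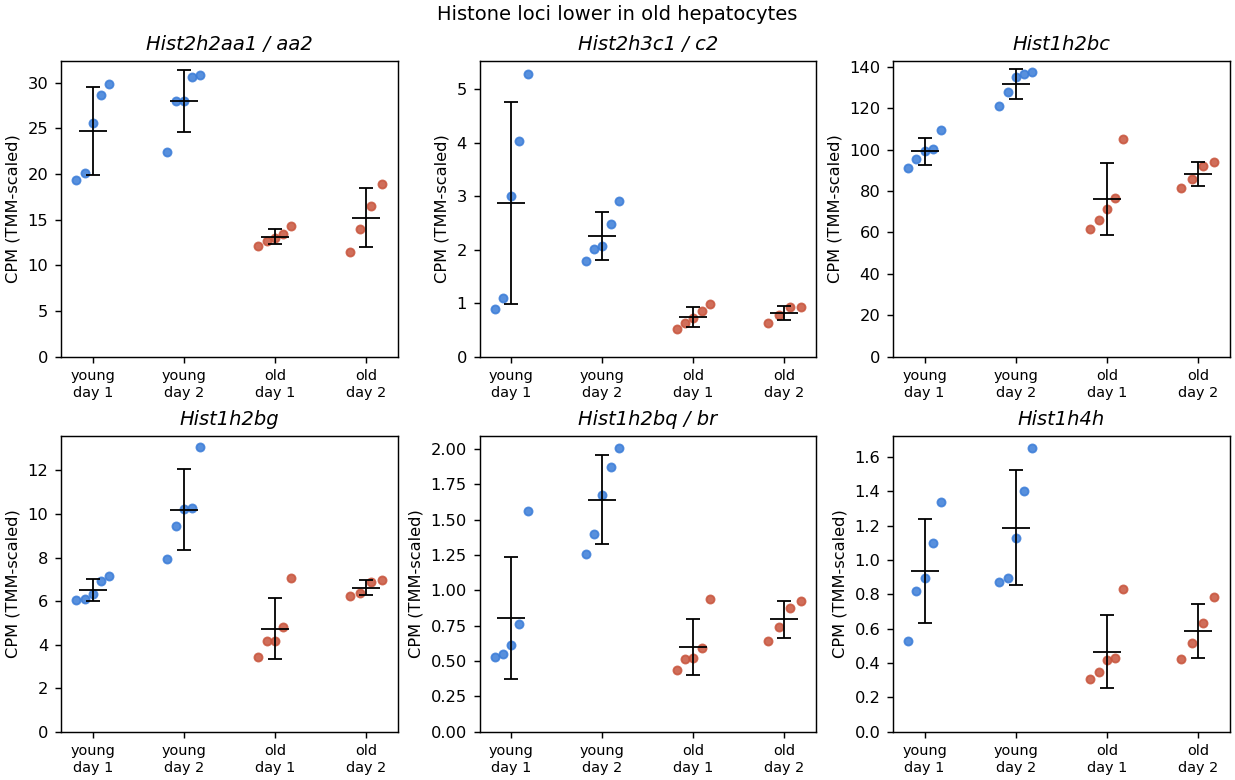
CPM in each library (points) of the 6 histone loci that were lower in old hepatocytes, by age and cull day, with mean and SD (bars). The old points lie below all the young ones for Hist2h2aa1 and aa2, and the groups overlap for the rest.

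The remaining tested members did not pass. Hist1h1c stood at 313.5, 584.8 and 808 counts in young and 314.5, 699 and 836 in old libraries, and the difference on the log2 scale was 0.07 (edgeR adjusted p = 0.798, SE 0.192). Its spread was wide at both ages, from 17.6 to 44.9 CPM in young and from 16.5 to 43.6 CPM in old libraries. The H2B genes Hist2h2be and Hist1h2be gave 0.12 (SE 0.181) and -0.14 (SE 0.205), the H2A gene Hist3h2a 0.15 (SE 0.186) and Hist1h4i 0.14 (SE 0.149). Hist1h2al, the H2A pseudogene row, gave -0.68 (SE 0.272, edgeR adjusted p = 0.0648), with 10, 17 and 31 counts in young and 5, 11 and 27 in old libraries. Missing the threshold does not show that these members did not change.

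**Figure D3:**
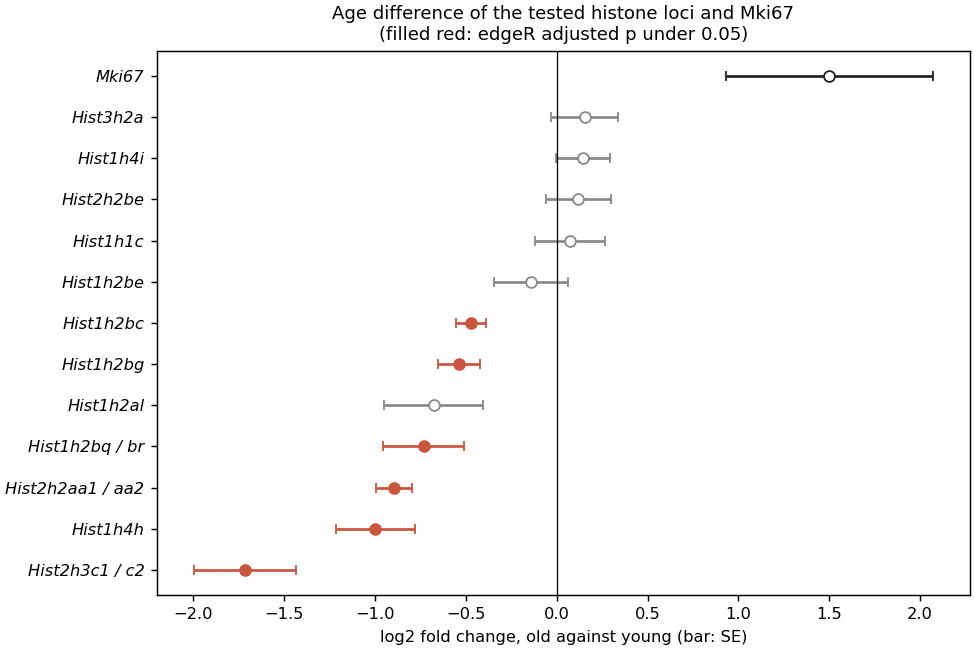
Log2 fold change of old against young with its SE for the 12 tested histone loci and Mki67. The 6 loci past the threshold are filled and lie between -1.72 and -0.47, and Mki67 lies at 1.50.

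The other 54 rows were too low to test after the filter, and raw counts are printed below for some. The 15 of them with 3 or more counts in at least 5 libraries were Hist1h2bh, Hist1h2bp, Hist1h1e, Hist1h2bf, Hist1h4c, Hist1h2ae, Hist1h2bl, Hist1h1d, Hist1h4d, Hist1h4b, Hist1h2bn, Hist1h4m, Hist1h4n, Hist1h2ac and Hist1h2bj. Hist1h2bh had the highest median count at both ages, at 4, 11.25 and 16.5 counts in young and 3.5, 7 and 12.5 in old libraries, while Hist1h2bp reached higher single values, of 19 in young and 16 in old libraries. The other 39 rows never exceeded 7.5 counts. Hist1h4m and Hist1h4n, which overlap on the genome, had 0 to 8.5 and 0 to 6 counts in young and 0 to 3 and 0 to 4.5 in old libraries. Over the 54 rows the mean CPM was lower in old libraries for 38 and higher for 13. The same split was not taken over all genes. Since some rows overlap and most hold few reads, it is a description only. With no filter on low counts, 13 of 66 rows were lower and none higher in edgeR's fit, against 11.6% lower among all 17806 genes tested. These 13 include both rows of the Hist2h2aa, Hist2h3c, Hist1h2bq and Hist1h2br, and Hist1h4m and Hist1h4n overlaps. Largely the same reads are therefore counted more than once, and fewer loci than rows were lower. The 4 untested rows among the 13, named after their values were seen, were Hist1h4m (adjusted p = 0.0152), Hist1h4n (0.0237), Hist1h4k (0.0151) and Hist1h3d (0.0306), at counts where fitted fold changes depend on the prior count.

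Summed over all 69 rows, the family stood at 228.6 ± 34.4 CPM (SD, 10 young libraries) and 162.5 ± 19.7 CPM (SD, 9 old libraries), a log2 ratio of -0.49 and, on gene totals without TMM, -0.45. With 1 row per locus the sums were 198.5 ± 29.6 and 147.0 ± 19.1 CPM. Of the 9 old libraries, 5 lay below all young ones. No p is given for the sum. By class, the log2 ratio of the summed CPM, 1 row per locus, was -1.51 for H3, -0.79 for H2A, -0.49 for H2B, -0.31 for H4 and 0.07 for H1. Most of the H3 sum was Hist2h3c1, with a mean of 2.56 of 2.95 CPM in young and 0.775 of 1.04 CPM in old libraries, and without young libraries 1184, 1186 and 1188 the H3 ratio was -1.16. Leaving out Hist1h2bc, the largest member, gave -0.48 over the remaining 68 rows. By symbol, the Hist2 cluster had a log2 ratio of -0.85, the Hist1 cluster (with Hist1h2al) -0.37 and the Hist3 cluster 0.14 (2.07 CPM in young and 2.28 CPM in old libraries). Hist4h4 had at most 1 count in any library, too few for a ratio.

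The family also differed in level between the cull days. In young libraries the sum over 1 row per locus was 178.1 ± 29.2 CPM on the first day (SD, n = 5) and 219.0 ± 8.51 on the second (SD, n = 5). Old libraries had 139.1 ± 19.96 CPM on the first (SD over 5) and 156.9 ± 14.4 on the second day (SD over 4). In edgeR's fit, 5 rows on 4 loci were higher on the second day, against 5.72% of all genes, and none was lower. They were Hist1h4i with a log2 difference of 0.59 (SE 0.149, adjusted p = 0.0205), Hist1h2bg with 0.57 (SE 0.115), Hist1h2bq and Hist1h2br with 0.75 (SE 0.219) and Hist1h2bc with 0.32 (SE 0.0828). Of these loci, 3 were also among the 6 lower with age. With no filter on low counts, 3 of 66 rows (Hist1h4i, Hist1h2bg and Hist1h2bc) were higher on the second day, against 2.61% of all genes. The interaction of age and cull day passed for no member (0 of 15 rows, and 0 at an unadjusted p under 0.05) and for no gene in the table in edgeR's fit, where 6.51% of all genes had an unadjusted p under 0.05.

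Mki67 encodes the Ki-67 protein of dividing cells and is the measure of cell division used here. It had 3, 19 and 42 counts in young and 9.5, 29 and 370.5 counts in old libraries, with the highest in old library 1187. Its log2 fold change was 1.50 (SE 0.570), just short of the threshold (edgeR adjusted p = 0.0517), and without library 1187 it was 0.86 (adjusted p = 0.146). On the first cull day alone it was 2.24 (adjusted p = 0.148) and on the second 0.60 (0.308). With the other-cell score added to the fit it was -0.0078 (adjusted p = 0.995). Library 1187 held 16.1 CPM against 0.519 to 4.79 in the other old libraries. The same library did not stand out in the histone sum, at 124.2 CPM against 123.6 to 172.6 CPM over all old libraries.

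With Mki67 as a further covariate, 9 rows on 6 loci were again lower, against 10.2% of all genes: Hist2h2aa1 had a log2 fold change of -0.93, Hist2h3c1 -1.86, Hist1h4h -1.12, Hist1h2bq -0.83, Hist1h2bg -0.48 and Hist1h2bc -0.42. With the other-cell score added to the fit, 7 rows on 5 loci were lower, against 6.33% of all genes. Hist1h2bq and Hist1h2br no longer passed there, at -0.79 (edgeR adjusted p = 0.0665).

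Among libraries of the same age and cull day, no histone row that passed the filter moved with Mki67 past the threshold. In edgeR's fit, the slope on log2 Mki67 passed for 0 of 15 rows and for 7.87% of all genes, and at an unadjusted p under 0.05 for 1 row (Hist3h2a, 0.19 per log2 unit, adjusted p = 0.0815) and for 22.7% of all genes. Slopes of the 12 loci lay between -0.06 and 0.19, with 6 above and 6 below 0. With no filter on low counts, 2 of 66 rows had a slope past the threshold in edgeR's fit, against 9.05% of all genes. They were Hist1h1b (H1), at 1.23 per log2 unit (adjusted p = 0.0204), and Hist1h3b (H3), at 1.10 (0.0399), named after their values were seen, with at most 1.5 and 2 counts in any library. Of the mitosis list, 12 of 13 genes had a positive slope past the threshold, among them Top2a at 0.79, and of the DNA replication list 8 of 20, among them Mcm3 at 0.40. These counts rest on library 1187: without it, 0 of 11 mitosis genes, 0 of 20 replication genes and 0 of 15 histone rows passed, as did 0.0733% of all genes. At an unadjusted p under 0.05, 7 mitosis genes, 10 replication genes and 3 histone rows were found in that edgeR fit, against 17.1% of all genes.

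**Figure D4:**
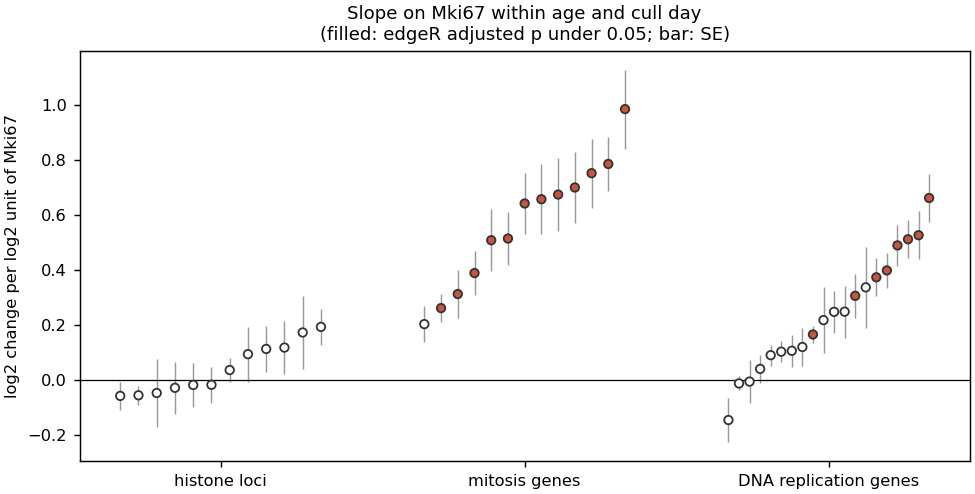
Slope on log2 CPM of Mki67, with its SE, in a fit with age and cull day, for the 12 tested histone loci, 13 mitosis genes and 20 DNA replication genes; filled points passed. The histone loci lie between -0.06 and 0.19 and none is filled.

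**Figure D5:**
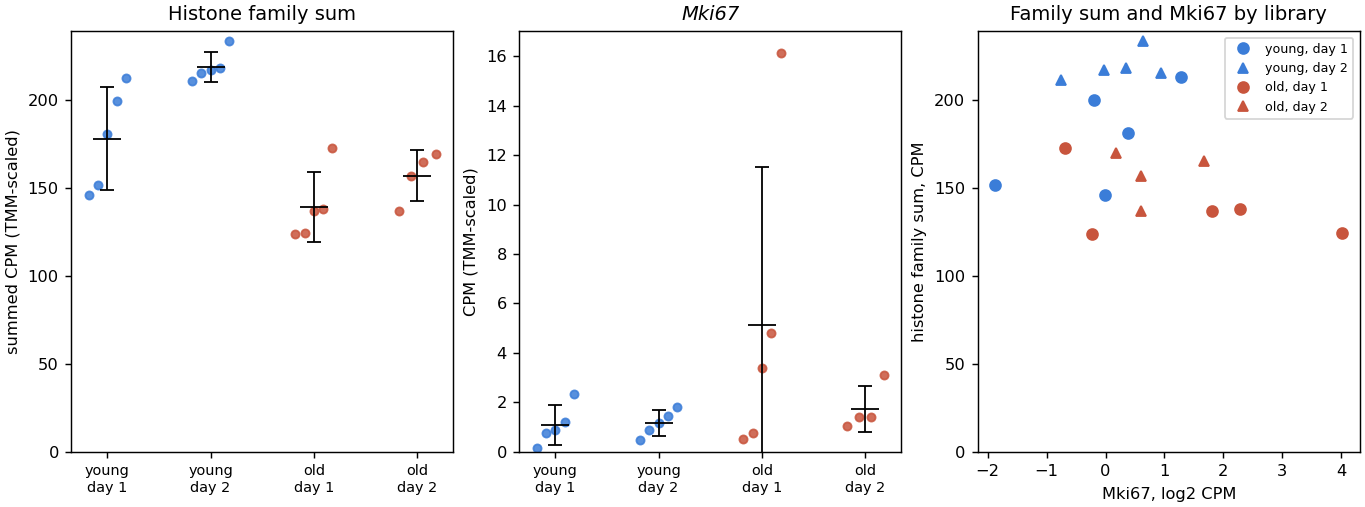
Histone family sum over 1 row per locus and Mki67, both in CPM per library by age and cull day with mean and SD (a bar that would reach below 0 ends at the axis), and the 2 set against each other. Old library 1187, at the far right, has the highest Mki67 and a histone sum of 124.2 CPM, near the low end.

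The genes that make or pack histones were taken from lists written with earlier results known. Of the mitosis list, 1 of 14 tested genes was higher in old libraries (Top2a, a topoisomerase, 1.64, edgeR adjusted p = 0.0195) and none was lower. Of the DNA replication list, 3 of 20 were higher (Mcm3 of the replicative helicase 0.79, Pola1 0.52 and Prim1 0.42, both of the polymerase alpha and primase complex) and none was lower. Over all genes tested, 16.3% were higher, so neither count is above that background. Old library 1187 held the highest Top2a, Mcm3 and Pola1, as it did Mki67, and without it Mcm3 (0.47), Pola1 (0.36) and Prim1 (0.35) no longer passed. With each library left out in turn, Mcm3 lost its call in 6 of 19 fits, Pola1 in 9 and Prim1 in 10. Top2a went to 1.01 without library 1187 and kept its call, and lost it on each cull day alone (2.20 with an adjusted p of 0.103, and 0.95 with 0.184). Without young libraries 1184, 1186 and 1188 it did not pass either, at a fold change that hardly moved (1.67, adjusted p = 0.0734). None of the 4 passed once the other-cell score was added: Top2a was at 0.16 (adjusted p = 0.827), Mcm3 at -0.030 (0.938), Pola1 at 0.31 (0.356) and Prim1 at 0.33 (0.206). None passed with Mki67 added either, where Top2a was at 0.44 (adjusted p = 0.259).

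Of 20 genes for histone mRNA processing and decay, 6 were lower and 1 was higher. The lower ones included Ncbp1, the large subunit of the nuclear cap-binding complex (-0.44, edgeR adjusted p = 0.000214), and the cleavage factors Cstf2 (-0.33) and Cpsf2 (-0.31); the higher one was Nelfe. Slbp itself did not pass, at 10.7 CPM (SD 1.35) over the 10 young and 11.5 CPM (SD 2.34) over the 9 old libraries, which is 0.10 on the log2 scale (edgeR adjusted p = 0.481, SE 0.107). Of 15 genes for polyadenylation, 4 were lower, among them Cpsf6 (-0.29), Fip1l1 (-0.27) and the poly(A) polymerase Papola (-0.20), and 2 were higher. On the second cull day alone Fip1l1 was at -0.087 (adjusted p = 0.598), Papola at -0.080 (0.517), Cstf2 at -0.22 (0.185) and Cpsf2 at -0.14 (0.344). On the first day alone Cpsf6 (-0.35, adjusted p = 0.0628), Cstf2 (-0.43, 0.0621) and Papola (-0.31, 0.0729) did not pass either, although each was further from 0 than over both days. Cpsf6 on the second day was at -0.23 (0.0828). With the other-cell score added, Fip1l1 (-0.24, adjusted p = 0.103) and Papola (-0.18, 0.113) were nearly as far from 0 but did not pass. Without young libraries 1184, 1186 and 1188 they were at -0.21 (0.0597) and -0.16 (0.0784). Papola was at -0.16 on gene totals without TMM (0.0672) and at -0.18 with Mki67 added (0.0596). Over all genes tested, 14.5% were lower and 16.3% were higher.

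Replacement histones are made outside DNA replication and from mRNAs with poly(A) tails. Of 10 tested, 1 was higher (H3f3b, encoding H3.3, 0.30, edgeR adjusted p = 0.0237) and none was lower. Their sum stood at 522, 567 and 657 CPM (lowest, median and highest) in young and at 536, 631 and 691 CPM in old libraries, so the groups overlapped. Of 18 histone chaperones, 1 was higher (Chaf1b, of the CAF-1 assembly complex, 1.04) and 1 lower (Ubn1, -0.27, which lost its call in 12 of 19 fits with a library left out). Neither list's counts exceed the 16.3% higher and 14.5% lower over all genes. None of the 3 passed once the other-cell score was added: H3f3b was at 0.19 (adjusted p = 0.265), Chaf1b at 0.59 (0.164) and Ubn1 at -0.34 (0.0693). H3f3b also lost its call without old library 1187 (0.25, adjusted p = 0.0515), with Mki67 added (0.23, 0.106) and on the first cull day alone (0.26, 0.288). Chaf1b did so on the first cull day alone (0.87, adjusted p = 0.181), and Ubn1 on gene totals without TMM (-0.23, 0.0982) and with no cull day term (-0.27, 0.0849). Of genes listed as lacking a poly(A) tail, 9 other than histones were in the table: 3 had no read and only Malat1 passed the filter, at 0.34 with no call. A single gene cannot show how much RNA of this kind the libraries held.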

How the data were processed

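The authors deposited estimated counts per gene, in multiples of 0.5, for all 19 libraries in 1 table. Per the file headers it was written by HOMER for mm10, counting exons of RefSeq transcripts and leaving values raw; the submitters' processing notes also name STAR. The deposited length of the counted exons, in another column, gave the levels per kilobase. The strand setting and the handling of reads with several matches are not given in the sources used here, which bears on near-identical histone copies. Of the deposited values, 29.2% were not whole, and counts were rounded before testing, although plain counts had been planned for. Gene totals were 78.3% to 86.5% of the totals in the column names.

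Age was tested over all genes with edgeR 4.0.16 (quasi-likelihood test, TMM, filterByExpr with a minimum count of 10, cull day as covariate, Benjamini-Hochberg adjustment, threshold 0.05) in R 4.3.3. Alternatives used limma 3.58.1 and DESeq2 1.42.0. In simulated data with the same design, 81.8% of genes changed 2-fold were recovered and 2.72% of calls were false. Mki67 entered as log2 CPM with a prior count of 2. Transcripts came from GENCODE M21 and promoters from RefSeq (GRCm38.p6). No 2 libraries agreed within sampling noise (lowest chi-square per degree of freedom 14.6). Members and lists were chosen with earlier results of these data known. Members passing the filter were named with their values. Lower ones were named where 5 or more libraries held at least 3 counts, with raw counts for some. From each list the 3 genes past the threshold with the smallest p were named, besides Mki67 and Slbp. Outside that rule, Nelfe, Malat1 and all called hepatocyte markers were also named. Genes of the other-cell lists are given as counts only.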

Additional observations from a re-analysis of the deposited data

Results flagged for a closer look

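In groups of 9 or 10 libraries, 1 library stood far from the rest in 9 of the 62 groups checked (Dixon's criterion, at which chance gives about 1 in 20). Among histone members these were Hist3h2a in young library 1180, at 0.842 CPM against 1.63 to 2.50 in the other young libraries, and Hist1h2al in old library 1236, at 1.39 CPM against 0.246 to 0.779 in the other old ones. Hist1h2al passed the threshold without library 1236 (-0.95), and also without young library 1243 (-0.75, edgeR adjusted p = 0.0428) and with limma-voom and sample weights (-0.79, limma adjusted p = 0.0294).

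Old library 1187 stood apart in genes of cell division and DNA replication. It held 16.1 CPM of Mki67 against 0.519 to 4.79 in the other old libraries, 12.3 of Top2a against 0.514 to 2.92, 17.8 of Mcm3 against 3.17 to 6.59, 8.50 of Pola1 against 3.09 to 4.51, 3.84 of Chaf1b against 1.35 to 2.52 and 16.8 of Slbp against 9.27 to 12.7. Young library 1186 held 6.91 CPM of Mcm3 against 2.58 to 4.39 in the other young ones. By the same criterion old library 1187 stood apart in no histone member tested, although its Hist3h2a, at 3.58 CPM, was the highest of the old libraries.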

How the results depend on the processing

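No histone member was higher in old libraries under any of the alternatives run. The count of lower rows, 9, stayed between 6 and 13 except on the first cull day alone, where it was 2 (both on the Hist2h2aa locus), and between 9 and 10 with each library left out. The family's log2 ratio of -0.45 stayed between -0.49 and -0.39, and between -0.49 and -0.41 with each library left out. Mki67 rested on the setting: its log2 fold change was 1.70 with no cull day term and 1.47 with DESeq2, both past the threshold, 0.84 with limma-voom and sample weights (limma adjusted p = 0.167), -0.0078 with the other-cell covariate, and 0.86 to 1.66 with each library left out, where 5 of 19 fits passed. With no filter, the count by cull day was 3 of 66 rows (5 of 15 with it) and that by Mki67 slope 2 of 66 (0 of 15 with it), against 2.61% of all genes higher on the second day and 9.05% with a slope; the latter count was 0 to 1 with each library left out (1 without young library 1180). Uncalled values turned sign for Hist1h1c (-0.034 with the Mki67 covariate, -0.046 with the other-cell covariate, and -0.0011 to 0.16 with each library left out, the lowest without young library 1182; it was 0.37 without young libraries 1184, 1186 and 1188 and 0.36 without old library 1187 as well, both uncalled), Hist3h2a (-0.090 and -0.28 with those covariates, -0.0021 on the second cull day alone), Hist2h2be (-0.072 on the first cull day alone) and Hist1h2be (0.091 without young libraries 1184, 1186 and 1188 and old library 1187, and 0.075 without those young libraries alone, the latter chosen after seeing the data). With the other-cell covariate Slbp turned to -0.011 and Mcm3 to -0.030. The causes were not tested. No paired analysis was possible because library numbers are not shared between ages. At this depth most members had too few counts for the filter, and 4 of them were called only without it.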
